A study of Canis lupus familiaris with 18 samples.

Results

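The genes described here encode glycoproteins of the stromal matrix and proteins that mark fibroblasts: FN1, POSTN, TNC, FBN1, FBLN1, THBS1, THBS2, THY1, FAP and DPT. A probe set, a group of short array probes for one transcript, was included when the platform annotation gave it to exactly 1 of these 10 symbols. This gave 26 of the 42924 probe sets other than controls: 5 for FBLN1, 4 each for FN1 and FBN1, 3 for THBS1, 2 each for THBS2, THY1, FAP and DPT, and 1 each for POSTN and TNC. All 26 lay above the filter on dim probe sets, the 40th percentile of the mean level, which 25754 passed. The genes are 10 of 15115 named on the array. They were measured in 18 primary osteosarcomas of dogs, bone tumours in which malignant cells lay down bone matrix, with 1 array per tumour.

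For 9 tumours the serum concentration of alkaline phosphatase (ALP), which reaches the blood chiefly from bone and liver, was labelled normal, and for 9 it was labelled increased. The comparison asks whether tumour expression differs with the serum enzyme. All samples were frozen tumour tissue, and normal tissue was not part of the design. The labels give no breed, age, treatment or cut-off for ALP, and do not say which tumour was taken at surgery, biopsy or necropsy. They number the tissues without naming dogs, so p-values measure the spread between these samples. A tumour sample mixes malignant cells with fibroblasts, vessels and blood cells, so fewer cells of a type and less RNA per cell cannot be told apart in any result below. Of the markers of the labelled tissue, IBSP, a protein of mineralising bone, had a median level of 11.98, but it ranged from 4.85, below the filter on dim probe sets, to 14.21. The deposited log2 values had nearly the same median on each array, from 6.25 to 6.31.

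Fibronectin (FN1) is assembled by cells into fibrils to which integrins and other matrix proteins attach. Fibrillin-1 (FBN1) builds microfibrils, on which elastic fibres form and latent TGF-beta is stored, and fibulin-1 (FBLN1) binds both fibronectin and elastic fibres. Periostin (POSTN), tenascin-C (TNC) and the thrombospondins (THBS1, THBS2) are matricellular proteins, which alter how cells respond to the matrix and are abundant in healing or tumour tissue. Dermatopontin (DPT) binds decorin and collagen fibrils. THY1 (CD90) and FAP, a membrane protease, are surface proteins used to mark fibroblasts and other mesenchymal cells. Osteoblasts and osteosarcoma cells can make several of these proteins themselves, as is known mainly from human and mouse tissue, so none of them is a marker of fibroblasts alone in bone.

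Levels are given as log2(signal + 16), a scale that damps the noise of dim probe sets and understates their changes. Levels of different probe sets are not set against each other, since probes differ in how strongly they bind. For each gene the probe set of highest mean is called the leading one. Spread is the standard deviation (SD) within the ALP groups, which had a median of 0.36 over the 25754 tested probe sets and a 90th percentile of 0.73.

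THBS2 varied more between tumours than nearly any other transcript on the array. With normal ALP its leading probe set had a lowest level of 6.59, a median of 11.46 and a highest of 13.33. With increased ALP these were 7.44, 10.18 and 13.29. Both groups thus held tumours at the top and at the bottom of the range, and they overlapped almost entirely. The deposited signal spanned 128-fold over the 18 tumours, and the SD of 2.28 lay at the 99.9th percentile of all tested probe sets. The second THBS2 probe set followed the first (r = 0.981 over 18 tumours) and spanned 70.1-fold. The lowest tumours were replicate 8 of either group, and the highest were replicate 1 with normal and replicate 7 with increased ALP.

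The other matricellular genes were also widely spread. POSTN, which is named for its expression in periosteum, stood at 8.47, 10.39 and 12.69 (lowest, median, highest) with normal ALP and at 8.36, 10.13 and 11.42 with increased ALP. Its signal spanned 21.0-fold and its SD of 1.34 lay at the 98.4th percentile. TNC, an anti-adhesive glycoprotein of developing bone and wounds, stood at 9.47, 9.67 and 11.83 with normal ALP and at 8.61, 9.96 and 12.10 with increased ALP. For TNC 5 of the 9 tumours with normal ALP lay close together near the bottom, and its single highest tumour in each group was replicate 8, where THBS2 was lowest. THBS1, which activates latent TGF-beta and inhibits vessel growth, stood at 10.97, 11.95 and 13.19 with normal ALP and at 11.92, 12.78 and 13.64 with increased ALP. The groups overlapped for all of these genes, THBS1 included.

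Of the fibril-associated proteins, FBN1 and FBLN1 were spread over several-fold and FN1 was not. FBN1 stood at 10.98, 12.84 and 13.80 with normal ALP and at 11.32, 12.70 and 13.80 with increased ALP, a signal range of 7.10-fold. FBLN1 stood at 9.70, 11.72 and 13.26 with normal ALP and at 10.54, 11.81 and 13.18 with increased ALP, a range of 11.9-fold. In both genes normal ALP replicate 2 was the lowest of all 18 tumours. FN1 stood at 12.61, 12.97 and 13.32 with normal ALP and at 12.23, 12.89 and 13.20 with increased ALP, and its range was 2.14-fold. The SD of this FN1 probe set, 0.29, lay at the 34.9th percentile, whereas those of the other 3 FN1 probe sets lay between 0.58 and 0.70. How much FN1 varied therefore depended on the probe set. DPT stood at 11.65, 12.73 and 13.42 with normal ALP and at 10.84, 12.65 and 13.75 with increased ALP, a range of 7.57-fold.

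The surface markers differed in spread from each other. THY1, a GPI-anchored surface glycoprotein, stood at 7.72, 8.40 and 9.55 with normal ALP and at 7.19, 7.50 and 10.10 with increased ALP. Its median was lower with increased ALP, but that group also held the single highest tumour, replicate 7. FAP stood at 10.33, 11.52 and 12.45 with normal ALP and at 10.53, 11.46 and 12.17 with increased ALP, a range of 4.38-fold. The SD was 0.90 for THY1 (94.4th percentile) and 0.65 for FAP (86.4th percentile). In all, 24 of the 26 probe sets had an SD above the median of all tested probe sets and 18 had one above the 90th percentile, as did 8 of the 10 leading ones (all but FN1 and FAP).

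**Figure D1:**
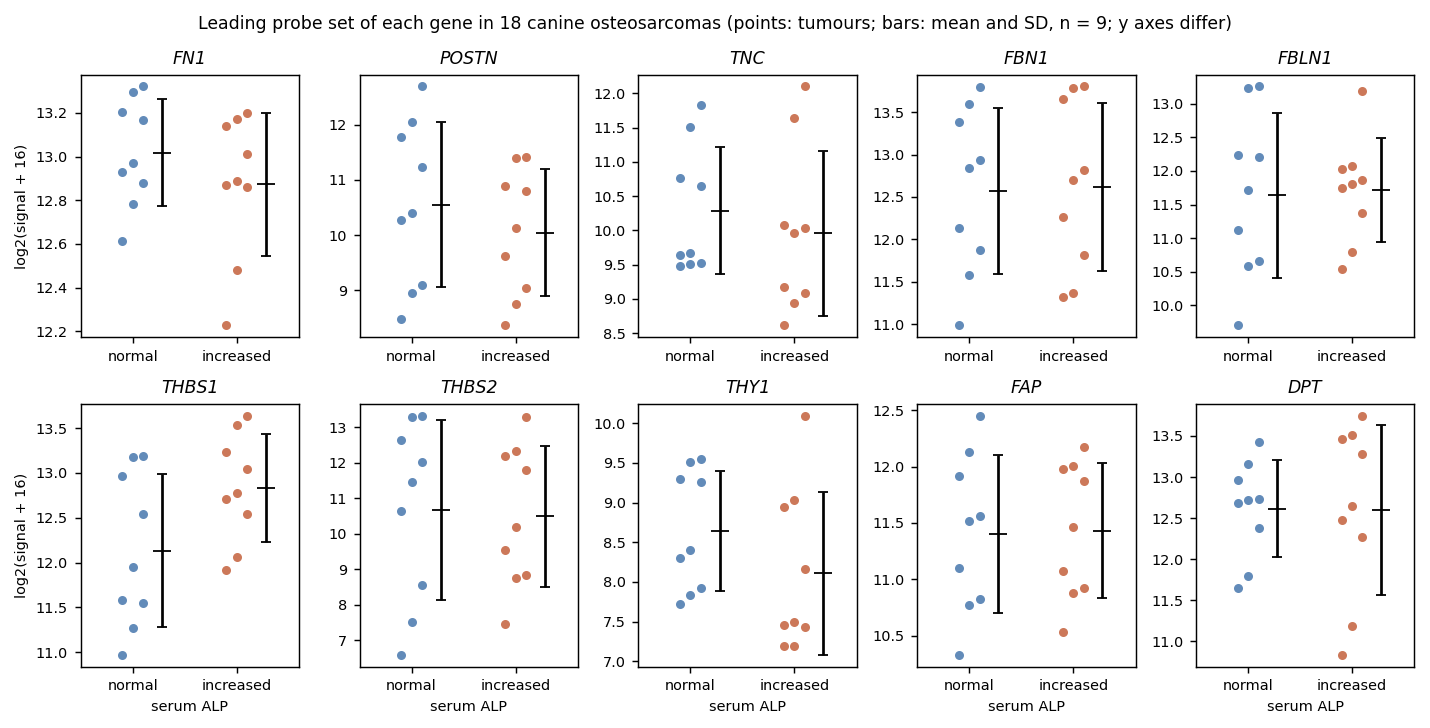
Level of the leading probe set of each gene, as log2(signal + 16), in the 9 tumours with normal and the 9 with increased serum ALP. Points are tumours, bars are the mean and SD, and the vertical axis differs between panels. The groups overlap for every gene, and the range is widest for THBS2 and narrowest for FN1.

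Probe sets of the same gene agreed on which tumours were high. Among the 29 pairs of probe sets of a shared gene, r over the 18 tumours ranged from 0.753 to 0.975 for FBLN1, from 0.814 to 0.961 for FBN1 and from 0.729 to 0.989 for FN1. It was 0.994 for THY1, 0.958 for FAP and 0.852 for DPT. The lowest value, 0.655, was that of the leading THBS1 probe set with a dim one of the same gene, whose mean of 6.44 was close to the filter at 6.15. Many of these probe sets carry the ending _s_at, which marks probes that may bind more than one transcript.

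None of the 10 genes was called different between the ALP groups. In limma's moderated test 0 of the 26 probe sets passed an adjusted p of 0.05, and across all 25754 tested probe sets 0 passed (0% called), with a smallest adjusted p of 0.615 among the 26. At an unadjusted p under 0.05 there were 2 of 26, both of THBS1, beside 6.14% of all tested probe sets. Of the 26 probe sets, 10 were higher and 16 lower with increased ALP, with a median difference of -0.05 against 0.01 over all tested probe sets. Differences below are increased minus normal ALP on the log2 scale, with 9 tumours per group.

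THBS1 came closest to a difference and was higher with increased ALP at all 3 of its probe sets. At the leading one the level was 12.13 ± 0.85 (SD, n = 9) with normal and 12.83 ± 0.60 (SD, n = 9) with increased ALP, and 7 of 9 tumours with increased ALP lay above the normal mean. The difference was 0.70 ± 0.32 (SE, 95% interval 0.02 to 1.38), a fold of 1.62. The adjusted p from limma was 0.808, and exact permutation of the group labels, two-sided, gave 0.0632. The second probe set gave 0.75 ± 0.37 (adjusted p = 0.819, exact permutation p = 0.0795). The dim one gave 0.32 ± 0.10 (adjusted p = 0.615, exact permutation p = 0.00547), with 8 of 9 tumours above the normal mean. The exact p-values of single probe sets are not adjusted for the number of probe sets tested. With the actin 3' minus middle difference, a measure of RNA quality, in the limma fit, the dim one stood at 0.23 (unadjusted p = 0.0791) and the leading one at 0.77 (unadjusted p = 0.0796). With array weights the leading one stood at 0.45. The list of smooth muscle and pericyte markers, which moved with THBS1 across tumours (below), overlapped between the groups, from -1.52 to 2.02 with normal and from -1.08 to 1.29 with increased ALP. Its part in the THBS1 difference was not tested.

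For the other genes the intervals included 0 at every probe set. THY1 was at 8.64 ± 0.76 with normal and 8.11 ± 1.03 (SD, n = 9 each) with increased ALP, which differed by -0.53 ± 0.40 (SE, 95% interval -1.37 to 0.30, exact permutation p = 0.224). Its second probe set gave -0.72 ± 0.47. POSTN differed by -0.50 ± 0.59 (95% interval -1.73 to 0.73) and TNC by -0.33 ± 0.47 (-1.32 to 0.67). For THBS2 the wide spread left an interval from -2.27 to 1.90 around -0.19, so that folds of increased over normal ALP from 0.207 to 3.72 were allowed. The leading FN1 probe set gave -0.15 ± 0.13 (-0.42 to 0.13), an allowed fold of 0.746 to 1.10, while the other 3 FN1 probe sets had an SE of 0.26 to 0.31 and allowed folds from 0.464 to 1.49. Values near 0 were found for FBLN1 (0.08 ± 0.45), FBN1 (0.04 ± 0.43), FAP (0.03 ± 0.29) and DPT (-0.01 ± 0.37).

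The probe sets of 1 gene did not always point the same way. In 4 of the 8 genes with several probe sets, namely FN1, FBN1, FBLN1 and FAP, the sign differed between them. FBN1 stood out, with 0.04 at the leading probe set and -0.68 ± 0.53, -0.50 ± 0.47 and -0.06 ± 0.22 (SE) at the others. FN1 ranged from -0.45 ± 0.31 to 0.02 ± 0.26. Each of these intervals included 0, and the difference between probe sets of 1 gene was not tested.

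**Figure D2:**
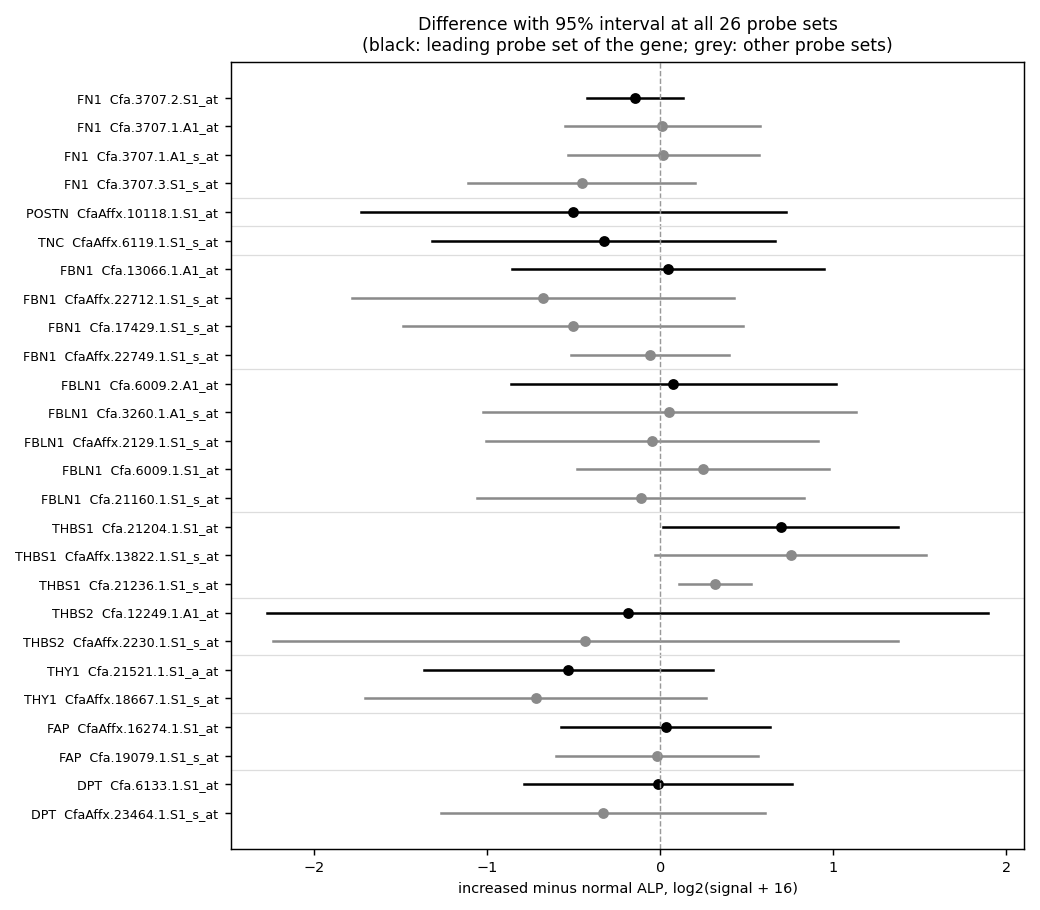
Difference between tumours with increased and normal serum ALP, in log2 units, with its 95% interval from the limma fit, at each of the 26 probe sets. Black marks the leading probe set of a gene and grey the others. The intervals of 2 THBS1 probe sets lie above 0 before adjustment, and all others include 0.

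The pairs called as correlated across tumours lay among POSTN, FBN1, FBLN1, THY1, FAP and THBS2, and FBN1 had the most called partners. Pearson's r was computed for the 45 pairs of genes, with two-sided permutation p-values adjusted over the 45 pairs. It was above 0 for 36 pairs, with a median of 0.334, beside a median of -0.0005 and a 90th percentile of 0.405 over all pairs of the 10717 tested genes. The adjusted p was under 0.05 for 10 pairs, all positive, and the same 10 passed with Spearman's rho, with adjusted permutation p-values from 0.0124 to 0.0234. FBN1 was in 5 of them, THY1 and FAP in 4 each, FBLN1 and THBS2 in 3 each and POSTN in 1. The share of all gene pairs that would pass was not computed, so the count does not set these genes apart. Genes outside the 10 often had a higher r. Ranked by r among 10716 other genes, the called partners stood from 14 (FBN1 for POSTN) to 444 (FAP for THBS2). Within the groups r of these 10 pairs ran from 0.513 to 0.897 with normal and from 0.673 to 0.831 with increased ALP. POSTN passed only with FBN1. Over all 18 tumours its r with FBLN1, THY1, FAP and THBS2 ran from 0.316 (FAP) to 0.516 (THY1).

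The strongest pair was FBN1 with FBLN1, the microfibril protein and a fibulin (r = 0.759, rho = 0.746, permutation p = 0.000330, adjusted p = 0.00532). Within the groups r was 0.843 with normal ALP (exact permutation p = 0.00573) and 0.681 with increased ALP (exact permutation p = 0.0380), and 0.762 without the 2 tumours farthest from the FBN1 median. POSTN followed FBN1 (r = 0.745, rho = 0.684, adjusted permutation p = 0.00532), with r of 0.726 and 0.831 within the normal and increased groups and 0.721 without its 2 farthest tumours. Single tumours departed from both relations: normal ALP replicate 1 was the second highest of 18 for FBN1 but the tenth for POSTN, and normal ALP replicate 3 was the fifth for FBN1 but the 11th for FBLN1. FBN1 also followed THY1 (r = 0.744, rho = 0.692) and FAP (r = 0.736, rho = 0.773), each with an adjusted permutation p of 0.00532. Without the 2 tumours farthest from the FBN1 median these were 0.787 and 0.648.

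FBLN1 followed both surface markers, THY1 at r = 0.729 (rho = 0.699) and FAP at r = 0.743 (rho = 0.688), with an adjusted permutation p of 0.00532 for each. Without the 2 farthest tumours they were 0.719 and 0.640. THY1 and FAP followed each other (r = 0.680, rho = 0.643, adjusted permutation p = 0.0154), at 0.780 within normal and 0.705 within increased ALP. THBS2 followed THY1 (r = 0.697, rho = 0.668, adjusted permutation p = 0.0123), FBN1 (r = 0.629, rho = 0.664, adjusted permutation p = 0.0290) and FAP (r = 0.623, rho = 0.653, adjusted permutation p = 0.0290). For these 4 pairs r without the 2 farthest tumours lay between 0.645 and 0.739. With each of the 18 tumours left out in turn, FBN1 with THBS2 passed in 15 cases and THBS2 with FAP in 14. The relation of THBS2 with FBLN1 was of similar size but did not pass (r = 0.529, rho = 0.556, adjusted permutation p = 0.0698).

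**Figure D3:**
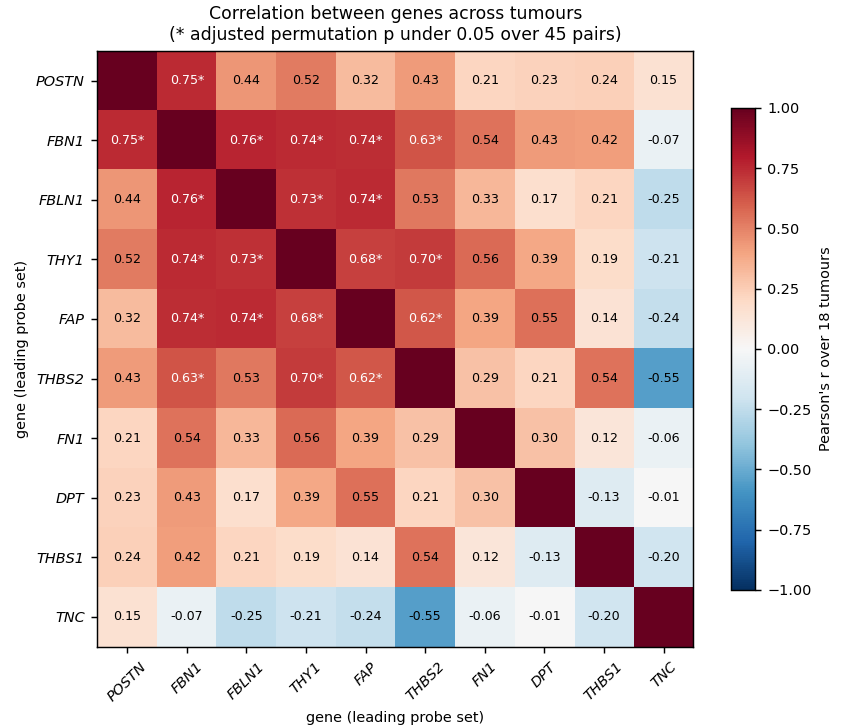
Pearson's r between the leading probe sets of the 10 genes over 18 tumours, with an asterisk where the permutation p adjusted over 45 pairs is under 0.05. The 10 marked pairs lie among POSTN, FBN1, FBLN1, THY1, FAP and THBS2, and TNC has negative or small values throughout.

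FN1, DPT, THBS1 and TNC were in none of the called pairs. FN1 had its highest values with THY1 (r = 0.563, rho = 0.501, adjusted permutation p = 0.0547) and FBN1 (r = 0.542, rho = 0.519, adjusted permutation p = 0.0605). With the mean of all probe sets of each gene in place of the leading one, a setting added after seeing the data, both passed, at r = 0.686 (adjusted permutation p = 0.0114) and r = 0.626 (adjusted permutation p = 0.0285), and 12 pairs were called in all. DPT was nearest to FAP (r = 0.550, rho = 0.527, adjusted permutation p = 0.0605). That relation was 0.912 within increased ALP (exact permutation p = 0.000477) and 0.0917 within normal ALP (exact permutation p = 0.809), and the difference between the groups was not tested. The thrombospondins, close relatives in sequence and structure, stood at r = 0.540 with each other (rho = 0.575, adjusted permutation p = 0.0644). Within the groups it was 0.781 with normal and 0.351 with increased ALP. Without normal ALP replicates 6 and 8, the 2 tumours farthest from the THBS1 median, r fell to 0.294, so the value rests on them.

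TNC, measured by a single probe set, was called with none of the other genes. Its r with the other genes had a median of -0.199 and was negative for 8 of the 9. The largest size was with THBS2, at r = -0.550 (rho = -0.501, adjusted permutation p = 0.0605), and it was -0.291 without normal and increased ALP replicate 8, on which it partly rests. In increased ALP replicate 8 TNC was the highest of 18 tumours while THY1 and DPT were the lowest and THBS2 and FAP the second lowest. THBS1 was the second highest there and POSTN the fourth highest. That tumour also had the highest mean of the osteoblast markers, 1.81 above the average of all tumours on the log2 scale.

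**Figure D4:**
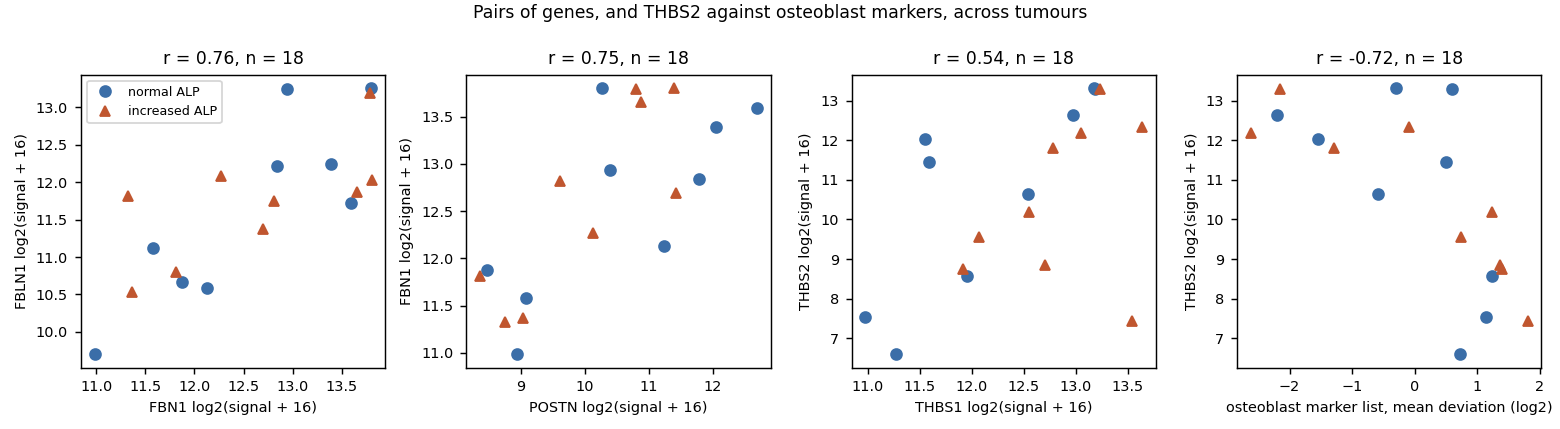
Leading probe sets plotted against each other, and THBS2 against the mean deviation of 8 osteoblast markers, as log2 values, with 1 point per tumour (circles normal, triangles increased ALP). FBN1 rises with FBLN1 and with POSTN in both groups, THBS1 and THBS2 are tied more loosely, and THBS2 falls as the osteoblast markers rise.

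The tumours rich in these genes came from both ALP groups. Averaged over the 10 leading probe sets, the deviation from the mean of all tumours ran from 0.93 in normal ALP replicate 4, 0.92 in increased ALP replicate 2 and 0.91 in increased ALP replicate 7 down to -0.77 in increased ALP replicate 4. The deviations were not scaled, so THBS2, of widest spread, weighs most in this order. By median rank over the 10 genes, increased ALP replicate 7 and normal ALP replicate 1 stood highest, each at 3, and normal ALP replicate 2 lowest, at 15.5. Increased ALP replicate 2 lay above the median for 10 of 10 genes and was the highest for FBN1 and DPT. Increased ALP replicate 7 and normal ALP replicate 1 were among the top 3 for 6 of 10 genes each. At the other end, normal ALP replicate 2 was among the lowest 3 for 5 genes, and was the lowest for FBN1, FBLN1 and FAP, while its TNC level was the fifth highest. The osteoblast list was not low in all of the richest tumours. It stood at 0.61 in normal ALP replicate 4, at -2.62 in increased ALP replicate 2 and at -2.15 in increased ALP replicate 7, and the skeletal muscle list was highest, at 4.85, in normal ALP replicate 1.

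**Figure D5:**
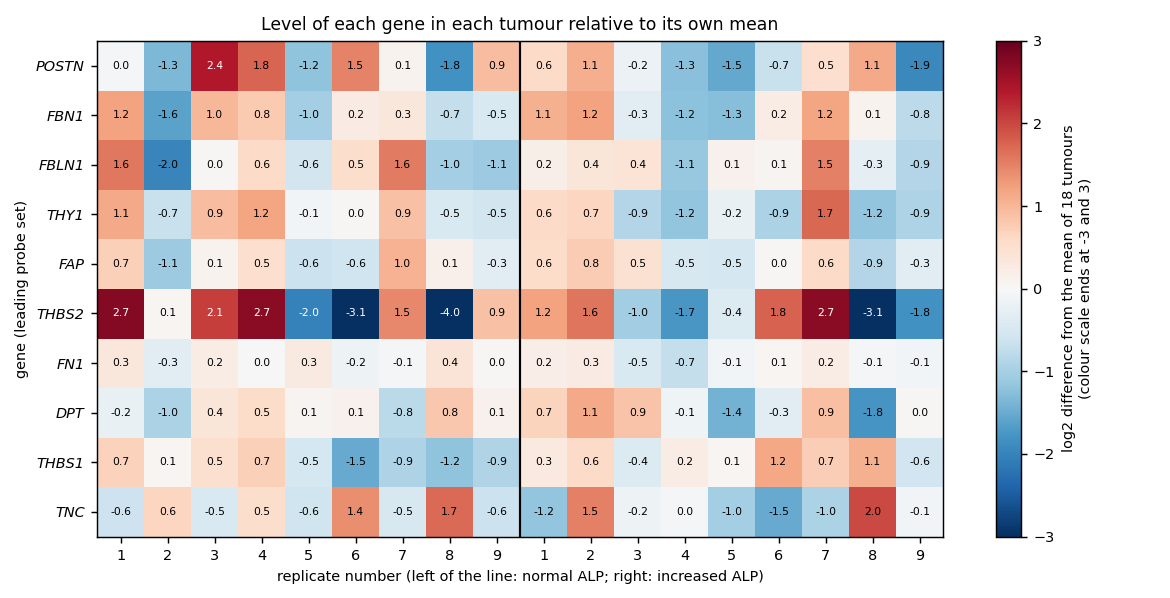
Level of each gene in each tumour as its log2 difference from the gene's mean over 18 tumours, with normal ALP left and increased ALP right of the line. THBS2 shows the largest deviations, and columns that are high or low for most genes occur in both groups.

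Lists of cell type markers were set against each gene, though a marker need not be made by 1 cell type alone. With 10 lists and 10 genes there were 100 relations, whose p-values were adjusted together. In 11 of them the adjusted permutation p was under 0.05, 4 positive and 7 negative. The share of all tested genes with such relations was not computed, so the count does not set these genes apart. By Spearman's rho 8 of the 11 also passed, the exceptions being FBN1 with smooth muscle markers and FBN1 and THY1 with osteoclast markers. The steadiest was THBS2 with smooth muscle and pericyte markers, such as ACTA2 and MYH11 (r = 0.785, rho = 0.794, adjusted permutation p = 0.00900), at 0.775 without the 2 farthest tumours and at 0.719 and 0.978 within normal and increased ALP. Over the other settings tried it passed in 26 of 28, missing the threshold without increased ALP replicate 7 (r = 0.762) and without the 2 tumours of high skeletal muscle markers (r = 0.769). FBN1 (r = 0.642, rho = 0.548) and THBS1 (r = 0.662, rho = 0.664) also rose with these markers, with adjusted permutation p-values of 0.0491 and 0.0450 (THBS1 at 0.843 within normal and 0.319 within increased ALP), and FBN1 with 6 fat cell markers (r = 0.642, rho = 0.662, adjusted permutation p = 0.0450).

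Bone-forming and bone-resorbing cells' markers ran opposite to several of the genes. The osteoblast and osteoclast lists were both low in normal ALP replicate 3 (-2.20 and -2.80). They were both low too in increased ALP replicates 2 (-2.62 and -2.03) and 7 (-2.15 and -2.78). They parted in normal ALP replicate 7 (-1.54 and 0.05). The correlation between the lists was not computed, so relations with them cannot be counted as separate. With the 8 measured osteoblast markers r was -0.716 for THBS2 (rho = -0.748), -0.695 for THY1 (rho = -0.664), -0.650 for FBN1 (rho = -0.664) and -0.637 for FAP (rho = -0.672), with adjusted permutation p-values of 0.0412, 0.0412, 0.0491 and 0.0493. With 5 osteoclast markers, such as ACP5 and MMP9, it was -0.719 for THBS2 (rho = -0.746), -0.665 for THY1 (rho = -0.521) and -0.635 for FBN1 (rho = -0.602), with adjusted permutation p-values of 0.0412, 0.0450 and 0.0491. Within the groups these relations were looser with normal ALP. The 4 osteoblast values lay between -0.591 and -0.364 there and between -0.885 and -0.868 with increased ALP. The 3 osteoclast values lay between -0.632 and -0.439 with normal and between -0.912 and -0.854 with increased ALP, and the difference between the groups was not tested. Without the 2 farthest tumours each of the 7 pooled values stayed between -0.829 and -0.648. TNC was the one gene whose r with the osteoblast list was above 0, at 0.211, and it was -0.00316 without replicate 8 of either group. These calls lay close to the threshold. Of the 100 relations 0 passed without increased ALP replicate 7, and 1 passed without replicate 3 or 5 of the normal group or replicate 1, 4, 5 or 9 of the increased group. Leaving out other single tumours gave 2 to 17, with 17 without normal ALP replicate 7. Over all single tumours left out, r of the 4 osteoblast relations stayed between -0.791 and -0.590.

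The 45 pairs of genes were then recomputed on what was left after a linear fit on a marker list, a setting added after seeing the data. After the osteoblast list 4 pairs passed, namely FBN1 with FBLN1 (r = 0.701) and with POSTN (r = 0.686), and FBLN1 with FAP (r = 0.677) and with THY1 (r = 0.666), each with an adjusted permutation p of 0.0294. After the smooth muscle and pericyte list the same 4 passed, at r from 0.657 to 0.703. The pairs of THBS2 did not pass in either case, and neither did FBN1 with THY1, FBN1 with FAP or THY1 with FAP. For THY1 with FAP r was 0.427 after the osteoblast list and 0.530 after the smooth muscle and pericyte list. No relation of the genes with RNA quality or with the BioB spike-in was called. Over 30 relations with the actin and GAPDH 3' minus middle differences and BioB, r lay between -0.406 and 0.315. The smallest adjusted permutation p was 0.987. By Spearman's rho TNC stood at -0.546 with BioB (permutation p = 0.0202, not adjusted). The actin difference was itself larger with increased ALP, at 0.71 ± 0.29 against 0.43 ± 0.05 (SD, n = 9 each).

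For each gene the 3 genes of most similar pattern were found by Pearson's r over 18 tumours among the other 10716 named genes tested. They were picked as the highest of many, so r is a description here. THBS2 was nearest to MAN1A1 (0.918), a Golgi mannosidase, BNC2 (0.913), a zinc finger protein of mesenchymal cells, and MFAP5 (0.898), a microfibril component. THY1 was nearest to VCAN (0.916), a large matrix proteoglycan, MASP1 (0.896), a complement protease, and ARNTL2 (0.889), a clock transcription factor. FAP was nearest to PCGF3 (0.916), a polycomb subunit, HMCN1 (0.885), a fibulin-related matrix protein, and FBLN5 (0.880), which assembles elastic fibres. All 9 held at 0.823 or above without the 2 farthest tumours.

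FBLN1 was nearest to IGFBP5 (0.885) and IGFBP4 (0.862), which bind insulin-like growth factors, and to EFEMP2 (0.868), or fibulin-4. FBN1 was nearest to STOM (0.907), a membrane scaffold protein, DHRS3 (0.885), a retinal reductase, and A4GALT (0.884), a glycosyltransferase. POSTN was nearest to RPS6KB2 (0.885), a ribosomal S6 kinase, RAB1B (0.815) and STX5 (0.802), both of transport between the endoplasmic reticulum and the Golgi. The remaining genes had looser neighbours. FN1 was nearest to KIAA1191 (0.798), SERPINE2 (0.794), a secreted protease inhibitor, and CCDC80 (0.777), a matrix protein. TNC was nearest to AP1B1 (0.791), an adaptor of vesicle coats, NMT2 (0.768), a myristoyltransferase, and CROT (0.761), a peroxisomal enzyme. THBS1 was nearest to MAGI1 (0.775), a junction scaffold whose r was 0.939 within normal but 0.287 within increased ALP, UGCG (0.746), which makes glucosylceramide, and USP2 (0.746), a deubiquitinase. DPT was nearest to ULK4 (0.821), CAPN2 (0.781), a calpain protease, and PACRGL (0.773). Without the 2 farthest tumours, r lay between 0.748 and 0.926 for the neighbours of FBLN1, FBN1 and POSTN. For those of FN1, TNC, THBS1 and DPT it then lay between 0.616 (TNC with CROT) and 0.850 (DPT with ULK4).

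Related genes in 5 lists were read from the same limma fit, and 0 members of any list passed an adjusted p of 0.05. Of 14 elastic fibre and microfibril genes 6 were higher and 8 lower with increased ALP (median -0.07). FBN2, the fibrillin of developing tissue, was at 9.30 ± 1.45 with normal and 7.72 ± 1.32 (SD, n = 9 per group) with increased ALP, and differed by -1.58 ± 0.61 (SE, adjusted p = 0.719 in limma). The difference was 0.68 ± 0.28 for LTBP1, which ties latent TGF-beta to microfibrils, and -0.59 ± 0.38 for LOX, a collagen and elastin crosslinker. Of 16 other matricellular and stromal glycoprotein genes 4 were higher and 12 lower, with a median of -0.39 beside 0.01 over all 10717 genes, of which 46.6% were lower. The difference of EDIL3, an integrin ligand, stood at -0.93 ± 0.42, VCAN at -0.90 ± 0.57 and TGFBI, a TGF-beta-induced adhesion protein, at -0.69 ± 0.47.

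Surface receptors for these glycoproteins had 4 of 9 genes higher and 5 lower (median -0.10). The difference of the integrin subunit ITGB1, shared by the main fibronectin receptors, stood at -0.48 ± 0.22 (SE), the thrombospondin receptor CD47 at 0.26 ± 0.15 and ITGB3 at -0.20 ± 0.15. Of 16 other fibroblast genes 4 were higher and 12 lower (median -0.06), with LUM, a collagen-binding proteoglycan, at -0.59 ± 0.26, DDR2, a collagen receptor kinase, at 0.51 ± 0.30 and TWIST1, a mesenchymal transcription factor, at -0.30 ± 0.24. TGF-beta genes were split between 5 higher and 5 lower (median 0.01), with LTBP1 again, TGFB2 at -0.83 ± 0.37 and INHBA, an activin subunit, at -0.65 ± 0.40.

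Across tumours, the median r of a gene with the elastic fibre list was highest for FAP, at 0.622, and lowest for TNC, at -0.231. With the other fibroblast genes it was highest for FBN1, at 0.578, and again lowest for TNC, at -0.0319. Of the 10 TGF-beta genes tested, TGFB1 itself had the lowest r for 6 of the 10 genes, from -0.766 with THBS2 to -0.424 with THBS1. Others of that list went the other way, such as TGFBR3 at 0.829 with FBN1 and TGFB3 at 0.633 with THBS2. The median r over the TGF-beta list was above 0 for 9 of the 10 genes, from -0.119 for TNC to 0.311 for THY1. These values describe 18 tumours, with 14, 16 and 10 genes tested in the lists.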

How the data were processed

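The authors deposited log2 signals for 43035 probe sets of an Affymetrix canine array, 1 per tumour, between 2.03 and 15.09. Per the labels' protocols, TRIzol RNA was labelled as cRNA from 10 µg. The submitters' processing notes name MAS5, and the summary and normalization steps are not given in the sources used here. Detection calls were not used, so background is unknown. The number of arrays limits the precision.

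Values were turned back to signals, 16 was added and log2 taken again, without further normalization. After 111 controls were set aside, probe sets below the 40th percentile of the mean (6.15) were left out. Symbols came from the platform annotation (29254 probe sets with 1, 439 with several, 13231 unnamed), and the RefSeq gene table, matched by identifier for 27680, changed 0 of them. No array was duplicated (highest Pearson correlation 0.982). Groups follow the labels. Differences were tested with limma 3.58.1 (R 4.3.3; lmFit, eBayes with trend, Benjamini-Hochberg over 25754 probe sets), checked on simulated data, and with exact permutation of all 48620 splits. Correlations used 100000 permutations, or all 362880 pairings within a group (SciPy 1.17.1, NumPy 2.4.6). RNA quality and the BioB spike-in were read from control probe sets. Alternatives were offsets, filters, normalizations, eBayes options, array weights, a block, covariates and arrays left out. Named were all 10 genes, their 3 nearest genes, and the 3 of smallest p in each related list. The genes, lists and tests were chosen with earlier results of these data known.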

Additional observations from a re-analysis of the deposited data

Results flagged for a closer look

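In 3 results 1 tumour lay far from the other 8 of its group. For FBLN1, increased ALP replicate 7 stood at 10.28 at the dimmest of the 5 probe sets, where the next tumour stood at 7.98, and at 13.13 at another, where the next stood at 11.64. It was also the highest of its group at the other 3. For FBN1, normal ALP replicate 1, the tumour of highest skeletal muscle markers, stood at 7.81 at the dimmest of the 4 probe sets, where the next stood at 6.89. The gaps were 0.791, 0.544 and 0.587 of the group's range, each above Dixon's 95% critical value. Chance gives about 1 in 20 groups such a gap, and 52 groups, which share tumours and genes, were examined.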

How the results depend on the processing

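No probe set, of these genes or any other, passed an adjusted p of 0.05 under any of the 32 other settings of the ALP comparison. With the tissue number as a replicate block 0 probe sets were called in all and 0 of these genes. Same-numbered tumours did not deviate together (r from -0.16 to 0.27 over 9 pairs, with 0 of 9 most like their own number), so the numbers were not taken to pair tumours. At the leading probe sets the differences of FN1, POSTN, THBS1 and THY1 kept their sign under every setting tried, but 2 other FN1 probe sets did not (-0.12 to 0.20 and -0.11 to 0.18). Those of TNC turned with the actin covariate (0.0853), of FBN1 with that covariate (-0.17) or the mean of its probe sets (-0.30), of FBLN1 with array weights (-0.0943) and of THBS2 without the 2 tumours of high skeletal muscle markers (0.35). FAP turned with array weights (-0.0016), the actin (-0.0722) or GAPDH (-0.0013) covariate or without the 2 arrays of high spike-in signal (-0.0349), and DPT with 75th percentile scaling (0.0327) or array weights (0.0585). Leaving out single tumours gave -0.16 to 0.21 for DPT, -0.10 to 0.16 for FAP, -0.17 to 0.28 for FBLN1, -0.15 to 0.21 for FBN1 and -0.70 to 0.19 for THBS2. Called pairs numbered 8 to 14 without single tumours and 7 to 12 under the other settings, but 4 after a fit on either marker list. The pairs FBN1-FBLN1, POSTN-FBN1, FBLN1-THY1 and FBLN1-FAP passed in all 30 settings. Called relations with marker lists fell from 11 to 5 with quantile normalization, 7 without the 2 high spike-in arrays, 4 with the mean of probe sets and 0 without the 2 high-muscle tumours, and ran from 0 to 17 without single tumours. The cause was not tested. The count of 8 leading probe sets of high spread stayed at 7 or 8 without single tumours.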
